A study of Mus musculus with 3 samples.

Results

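The gene set described here holds 33 immediate early genes, taken by symbol from a fixed list, out of 32285 genes in the deposited matrices. All 33 symbols were found. Each member's raw UMIs (unique molecular identifiers, which mark captured transcripts) were summed per cell class and library over cells with at least 500 detected genes and at most 7% mitochondrial UMIs, and the sums were scaled to counts per 1000000 UMIs (CPM). The comparison asks which members were higher or lower in which class at 24 h and at 3 d.

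The study followed the mouse brain after a transient ischemic attack (TIA), made by closing the middle cerebral artery with a filament for 5 min under isoflurane in oxygen and nitrous oxide. Live cells were sorted for single-cell RNA sequencing with 10x Genomics 3′ chemistry into 3 libraries, from naive mice, from mice at 24 h and from mice at 3 d after TIA, and the TIA cells came from the ipsilateral hemisphere. The mice were adult male wild-type (WT) animals of the strain C57BL6J, and every library joins cells of 3 mice, so that a group has 1 library, no replicate and no test. White matter and meninges were removed, the tissue was digested with papain, and dead cells were depleted before the sort. The labels call the control naive and the tissue brain, while the study's text also calls them sham and cortex, and by the labels the surgery, the anaesthesia and the occlusion cannot be told apart. Both times were compared with the same naive library, so their ratios share it. Each library came from its own pool of mice, and it is not stated whether mice were dissociated singly or together, or on which day. A difference in the dissociation and a difference in the tissue cannot be told apart either, and no transcription inhibitor is named for these cells.

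Immediate early genes are transcribed within minutes of a stimulus by factors that are already in the cell, such as SRF, CREB and NF-κB, without new protein synthesis. Many encode transcription factors of the AP-1, EGR, KLF, NR4A and C/EBP families, and others encode proteins that end the response by removing phosphates from kinases or by degrading mRNA. Neuronal activity, injury and inflammation switch them on in the brain, and so does warm enzymatic dissociation of tissue, above all in microglia and endothelial cells.

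The deposited libraries held 4804 cells and 37987228 UMIs (naive), 1619 cells and 12919691 UMIs (24 h) and 5505 cells and 48636436 UMIs (3 d). After the filter 4018, 1225 and 4781 cells stayed, with a median of 7750.0, 8123 and 7868 UMIs. The 24 h library was the smallest, and 21% of its cells were over the mitochondrial limit, against 11.8% and 11.4% in the naive and 3 d libraries. The share of kept cells called doublets (2 cells under 1 barcode) was 3.04% in the naive library, 0.490% at 24 h and 2.93% at 3 d. Between 3 and 8 barcodes were shared by any pair of libraries.

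In 6 classes each library had at least 50 cells, and these are compared. They are named after the marker genes their clusters share, and the suffix -like of the plots is left off in the text except for neurons. Microglia (P2ry12, Tmem119, Cx3cr1) had 974, 270 and 1212 cells in the naive, 24 h and 3 d libraries. Astrocytes (Aqp4, Slc1a3, Gja1) had 894, 239 and 1427 cells, and oligodendrocytes (Mog, Mobp, Cldn11) had 232, 72 and 250. Endothelial cells (Cldn5, Flt1, Ly6c1) had 287, 229 and 591 cells. Pericytes (Kcnj8, Abcc9, Vtn) had 159, 182 and 327 cells, and their cluster also met the marker rule for smooth muscle with 3 genes and for fibroblasts with 4. The neuron-like class had 795, 112 and 375 cells and is marked by Dcx, Gad1 and Gad2. Slc17a7, the transporter of excitatory neurons, was found in 1 of 1282 cells, and Rbfox3 in 8.19% of them against 0.896% of microglia, at median depths of 7690.0 UMIs and, in the larger microglial cluster, 7729 UMIs, while other neuronal markers were common, Snap25 in 66.2%, Syt1 in 36.7% and Stmn2 in 89.7% of cells. The excitatory neurons that Slc17a7 marks were therefore not measured here.

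The classes differed far more from each other than from one library to the next. Microglia held 16013, 16389 and 16548 CPM summed over the 33 members in the naive, 24 h and 3 d libraries, and endothelial cells 12143, 12325 and 12809.8 CPM. Pericytes followed with 4448, 5194 and 4634 CPM, and the neuron-like class with 2282, 2525 and 2466 CPM. Oligodendrocytes had 1776, 2147 and 2049.7 CPM and astrocytes 1549.5, 1601 and 1321 CPM. The order of the 6 classes was the same in the 3 libraries. Without called doublets, the sum was 1599, 2059 and 1591 CPM in oligodendrocytes and 1076, 1569 and 1127 CPM in astrocytes, so that in both classes the 24 h library stood above the other pair.

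Per cell the picture was the same. Cells thinned to 2000 UMIs had a median of 30, 30 and 31 member UMIs in microglia of the naive, 24 h and 3 d libraries and of 21, 20 and 23 in endothelial cells. Endothelial cells thinned to 4000 UMIs had medians of 45, 50.5 and 49, so that the 24 h library then stood highest. Pericytes had 7, 9 and 8, the neuron-like class 3, 4 and 4, oligodendrocytes 3, 3 and 3 and astrocytes 2, 2 and 2. In microglia the lower and upper quartiles were 22.0 and 39.8 in the naive library and 22.0 and 42 at 24 h. Cells are not replicates, and these ranges describe cells and not mice.

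Jun was the most abundant member in microglia with 3101 CPM in the naive library, 2676 CPM at 24 h and 2997 CPM at 3 d, and it was nearly as high in endothelial cells with 2705, 2141 and 2633 CPM in the same order. Klf2, a factor of endothelial quiescence, was highest in endothelial cells, with 1628, 1961 and 1587 CPM, against 299.9, 260.4 and 366 CPM in microglia. Btg2, an antiproliferative cofactor of mRNA deadenylation, reached 1695, 1512 and 1809 CPM in microglia. At the other end, Npas4 and Nr4a3 had fewer than 100 UMIs in every comparison, so that 31 members could be compared in at least 1 class and time. Levels of different genes are given as captured UMIs of the 3′ end.

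**Figure D1:**
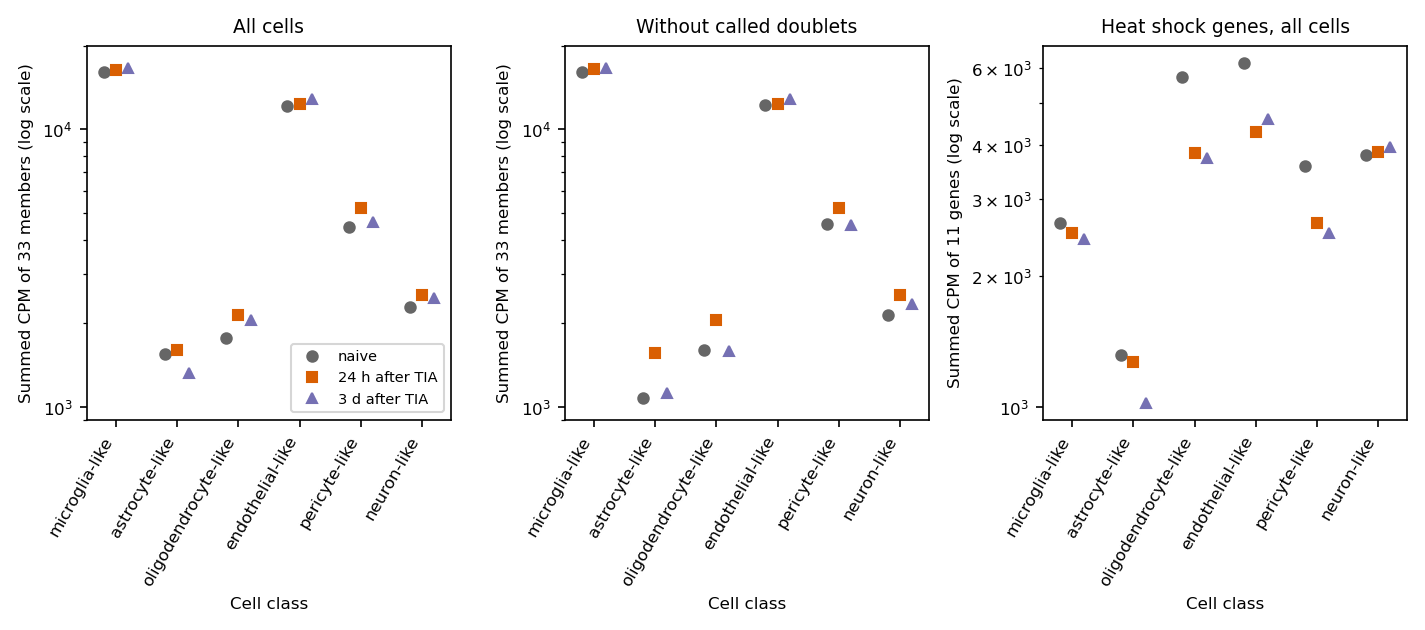
Summed CPM (log axis) of the 33 immediate early genes for the 6 cell classes, in all cells (left) and without called doublets (middle), and of 11 heat shock genes in all cells (right); each point is 1 library, naive, 24 h or 3 d after TIA, with no replicates. Microglia and endothelial cells stand highest for the immediate early genes in every library. Heat shock genes are lower after TIA in oligodendrocytes, endothelial cells and pericytes, and by less in astrocytes and microglia.

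A member was compared in a class and time when it had at least 100 UMIs over the TIA and naive libraries together, and it is called higher or lower when its CPM differed at least 1.5-fold. The lists of 69 other early response genes, 26 genes known to respond to dissociation, 11 of them heat shock genes, and 10 glucocorticoid targets were treated in the same way. A scarce gene can reach 100 UMIs through the library in which it is high, while a gene low in both cannot. The shares of members and of all genes follow the same rule and are not corrected for this. Levels without a label are in the order naive, 24 h and 3 d. Each log2 ratio of TIA to naive is followed in parentheses by its exact 95% interval, which covers counting error only and not differences between mice or preparations. Of 396 combinations of member, class and time, 246 could be compared. Over all classes and times, 41 were higher and 33 lower, where 5.1% and 4.34% of the values of all genes were. Many of these differences were no longer called when a few cells, called doublets, or cells with many marker UMIs of other classes were left out. Each was therefore computed in 4 settings, a set chosen after the data were seen: all cells, without called doublets, without the 5 cells of each library with the most UMIs of the gene, and without the 10% of each class's cells with the largest share of other classes' marker UMIs. The call held in all 4 settings for 19 of the 41 higher and 3 of the 33 lower values, where 50.3% of the higher and 57.1% of the lower calls of all genes held. Of the values of all genes, 2.57% were thus higher and 2.48% lower in all 4 settings. Without doublets 38 of the 74 calls were kept, where 79.1% of the higher and 72.5% of the lower calls of all genes were. Of the 36 calls that were not, 14 were still past the limit in the same direction and had fewer than 100 UMIs, so that the loss of such a call does not show a smaller difference. The 5 cells are picked by the gene's own UMIs and are a larger share of a small library, 6.94% of oligodendrocytes at 24 h against 2.16% of the naive ones and 4.46% against 0.629% in the neuron-like class, so that the removal does not weigh equally on the libraries. Ratios without the same share of every library, the 2% of a class's cells with the most UMIs of the gene, were therefore computed as well, also after the data were seen. Of the 22 calls that held, 21 were kept there, all but Gadd45b in microglia at 3 d, which had a log2 ratio of 1.97 with fewer than 100 UMIs, where 91.5% of the higher and 87.8% of the lower calls of all genes that held were kept.

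**Figure D2:**
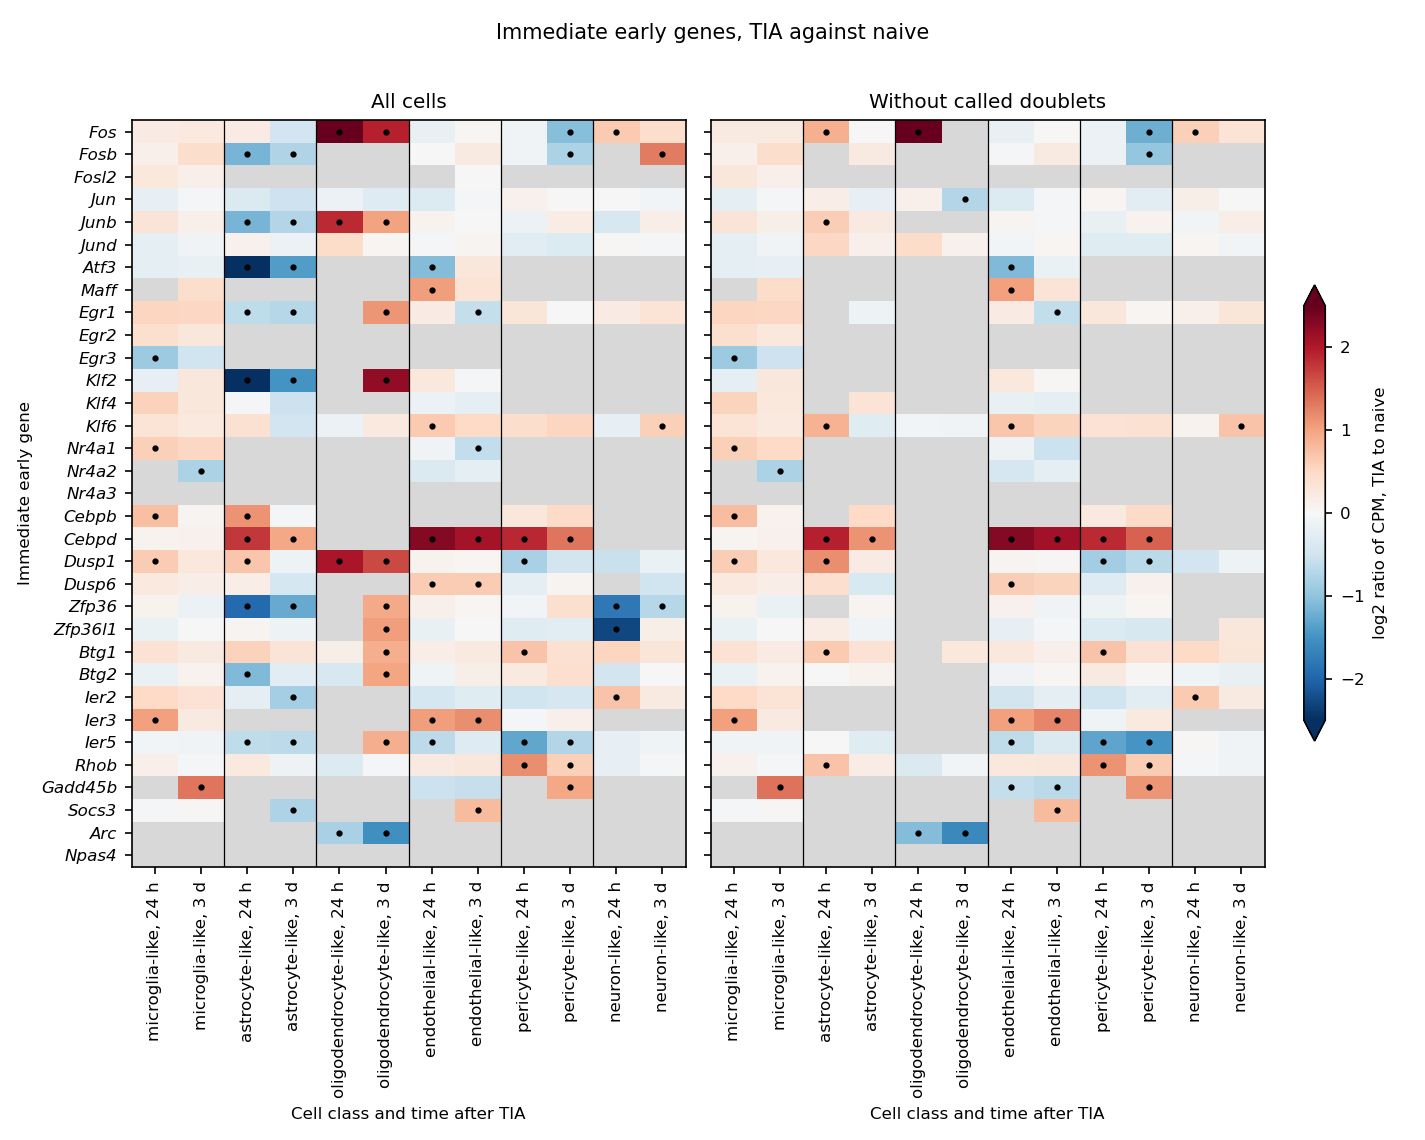
Log2 ratio of CPM, TIA to naive, for the 33 members in 6 cell classes at 24 h and 3 d, in all cells (left) and without called doublets (right); red is higher and blue lower after TIA, a dot marks a difference of at least 1.5-fold, and grey marks fewer than 100 UMIs over both libraries. Cebpd is red with a dot in astrocytes, endothelial cells and pericytes at both times on both sides, while most blue fields of astrocytes and most red fields of oligodendrocytes at 3 d lose their dot on the right.

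Endothelial cells had the most calls that held in all 4 settings, with 4 higher and 1 lower at 24 h and 3 higher at 3 d. Of all genes compared in the class, 5.08% were higher and 3.16% lower in all 4 settings at 24 h. At 3 d these shares were 4.21% and 1.57%. The shares of higher values were the largest of the classes at both times, so the class also led over all genes. Cebpd, a C/EBP factor of the acute phase response, was about as high at 3 d as at 24 h and far above the naive library, and Ier3, an early response protein that modulates survival and NF-κB signalling, was higher at both times as well. Klf6 and Dusp6 were higher at 24 h and Socs3, an inhibitor of cytokine receptor signalling, at 3 d. Atf3, a stress-induced repressor, was lower at 24 h. These calls held. Cebpd had 73.9 CPM in the naive library, 360.4 CPM at 24 h and 313 CPM at 3 d, a log2 ratio of 2.29 (1.98 to 2.61) at 24 h and 2.08 (1.79 to 2.39) at 3 d. For Ier3 the levels were 237 CPM in the naive library, 486 CPM at 24 h and 532 CPM at 3 d, with log2 ratios of 1.04 (0.84 to 1.23) and 1.17 (1.00 to 1.35). Both libraries after TIA were thus well above the naive library, with intervals far from 0. Klf6, a zinc finger factor of vascular injury, had 324 CPM in the naive library, 509 CPM at 24 h and 455 CPM at 3 d and a log2 ratio of 0.65 (0.48 to 0.83) at 24 h and 0.49 (0.33 to 0.65) at 3 d. Dusp6, which removes phosphate from ERK, had 63.1 CPM in the naive library, 97.5 CPM at 24 h and 98.6 CPM at 3 d, with log2 ratios of 0.63 (0.22 to 1.04) and 0.64 (0.29 to 1.01), and the ratio at 3 d was 0.57 without doublets, just under the limit, as was that at 24 h with every cell weighted equally, at 0.57. Socs3 stood at 32.3 CPM in the naive library, 35.9 CPM at 24 h and 55.9 CPM at 3 d, with a log2 ratio of 0.79 (0.30 to 1.30) at 3 d. Atf3 stood apart from the others: it had 119.8 CPM in the naive library, 56.2 CPM at 24 h and 146 CPM at 3 d, a log2 ratio of -1.09 (-1.51 to -0.69) at 24 h and 0.29 (0.026 to 0.56) at 3 d, so the low level was seen at 24 h and not at 3 d.

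At 24 h, 25 members had at least 100 UMIs in endothelial cells, of which 5 (20.0%) were at least 1.5-fold higher, against 7.13% of all genes tested, and 2 (8.0%) were at least 1.5-fold lower, against 5.54%, and the median log2 ratio was -0.0025 against -0.0046 for all genes. At 3 d, 27 members had at least 100 UMIs, of which 4 (14.8%) were at least 1.5-fold higher, against 7.34% of all genes tested, and 2 (7.41%) were at least 1.5-fold lower, against 3.14%, and the median was 0.049 against 0.043. The median of the members was thus close to that of all genes at both times, and the differences were those of single members. Of the other early response genes, 8 of 42 were higher and 4 lower at 24 h, with a median log2 ratio of 0.083, and 11 of 46 were higher and 0 lower at 3 d, with a median of 0.15. Of the glucocorticoid targets, 6 of 8 were higher and 0 lower at 24 h, with a median log2 ratio of 2.75, and 5 of 7 were higher and 0 lower at 3 d, with a median of 1.25. Of the dissociation genes, 1 of 17 was higher and 4 lower at 24 h, with a median log2 ratio of -0.13, and 2 of 18 were higher and 3 lower at 3 d, with a median of -0.16. Among the genes of these lists, in the naive, 24 h and 3 d libraries, Lcn2, a secreted carrier of iron siderophores, had 2.87, 141 and 28.1 CPM and a log2 ratio of 5.62 (4.24 to 7.51) at 24 h. Ccn2, a matrix protein, was at 20.8, 381 and 169 CPM, with 4.19 (3.65 to 4.79). Fkbp5, a chaperone of steroid receptors, was at 5.74, 73.3 and 46.0 CPM, with 3.68 (2.64 to 4.93). At the low end, Hist1h2bc, a histone gene of the dissociation list, had 165, 60.8 and 88.4 CPM and a log2 ratio of -1.44 (-1.83 to -1.06) at 24 h. Irf1, an interferon factor, was at 92.5, 42.9 and 77.4 CPM, with -1.11 (-1.59 to -0.64). Hspb1, a small heat shock protein gene, was at 1910.3, 904 and 1237 CPM, with -1.08 (-1.18 to -0.98). The 11 heat shock genes summed to 6178, 4267 and 4586 CPM, which is lower after TIA. Summed microglial markers were 819.9, 353 and 1112 CPM, or 441, 353 and 416 CPM without doublets, and in all cells 9 of 9 were below their naive level at 24 h, when Olfml3 was at 0. Astrocyte markers summed to 877, 935 and 994 CPM, or 699, 935 and 1026 CPM without doublets, of which S1pr1 held the most, and oligodendrocyte markers to 548, 846 and 659.8 CPM, or 552, 846 and 690.4 CPM, of which Mal held the most. In all cells S1pr1 had 529, 779 and 679 CPM and Mal 391, 805 and 532 CPM. Most of the other markers went the other way at 24 h, when 7 of 9 astrocyte and 6 of 8 oligodendrocyte markers were below their naive levels. At 3 d 6 of 9 and 6 of 8 were above them. The part of this RNA in the results was not tested. Without called doublets, 5 of 25 members were higher (all genes 7.32%) and 3 lower (all genes 4.91%) at 24 h, and 3 of 26 members were higher (all genes 6.09%) and 2 lower (all genes 2.92%) at 3 d, when 9 of 44 other early response genes were higher and 0 of 17 dissociation genes, with 2 lower.

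Pericytes had higher Cebpd, as endothelial cells did, and also higher Rhob and Btg1. Rhob, a small GTPase of the actin cytoskeleton and of endosomes, was higher at both times, Btg1, an antiproliferative factor, was higher at 24 h, and Ier5, a regulator of the heat shock factor HSF1, was lower at both times. The calls of Cebpd and Rhob at both times, of Btg1 at 24 h and of Ier5 at 3 d held in all 4 settings. Of all genes compared in pericytes, 3.73% were higher in all 4 settings at 24 h. At 3 d 2.72% were higher and 1.22% lower. Cebpd was at 155, 573 and 393 CPM, with log2 ratios of 1.89 (1.59 to 2.19) and 1.35 (1.05 to 1.65). Rhob was at 355, 797 and 536 CPM, with 1.17 (0.96 to 1.37) at 24 h and 0.59 (0.39 to 0.80) at 3 d. Both genes were highest at 24 h and still above the naive library at 3 d. Btg1 had 261, 431 and 342 CPM and a log2 ratio of 0.72 (0.47 to 0.98) at 24 h. Ier5 had 104, 42.4 and 62.4 CPM, with -1.29 (-1.87 to -0.73) at 24 h and -0.73 (-1.19 to -0.27) at 3 d, and without doublets the ratio at 3 d was -1.48. At 24 h Ier5 had fewer than 100 UMIs once its 5 highest cells of each library were left out, with a log2 ratio of -1.49. With a mitochondrial limit of 4% both calls of Ier5 ended, with -1.21 and fewer than 100 UMIs at 24 h and -0.45 at 3 d. Rhob at 3 d was just within the limit in other settings, with 0.54 when only cells past both cell limits were left out, 0.57 when clustered without the members and 0.56 when scaled to the genes' median ratio.

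At 24 h, 19 members had at least 100 UMIs in pericytes. Of these, 3 (15.8%) were at least 1.5-fold higher, against 6.04% of all genes tested, and 2 (10.5%) were at least 1.5-fold lower, against 3.13%, with a median log2 ratio of -0.064 beside 0.0037 for all genes. At 3 d, 20 members had at least 100 UMIs. Of these, 3 (15.0%) were at least 1.5-fold higher, against 9.94% of all genes tested, and 3 (15.0%) were at least 1.5-fold lower, against 3.48%, with a median of 0.10 beside 0.038. Among the other early response genes, 5 of 25 were higher and 2 lower at 24 h, with a median log2 ratio of 0.081, and 9 of 34 were higher and 1 lower at 3 d, with a median of 0.22. Among the glucocorticoid targets, 4 of 5 were higher and 0 lower at 24 h, with a median log2 ratio of 1.45, and 4 of 4 were higher and 0 lower at 3 d, with a median of 0.97. Among the dissociation genes, 3 of 12 were higher and 3 lower at 24 h, with a median log2 ratio of -0.12, and 1 of 13 was higher and 2 lower at 3 d, with a median of -0.25. Zbtb16, a zinc finger gene that glucocorticoids switch on, had 5.53, 153 and 79.2 CPM and a log2 ratio of 4.79 (3.40 to 6.68) at 24 h. Ddit4, an inhibitor of mTOR signalling, was at 19.3, 121 and 57.0 CPM, with 2.65 (1.85 to 3.56). Tsc22d3, a mediator of glucocorticoid action, was at 42.8, 117 and 71.8 CPM, with 1.45 (0.87 to 2.07). Lower at 24 h, Hspb1 had 593, 273 and 201 CPM and a log2 ratio of -1.12 (-1.34 to -0.90) at 24 h. Hsp90ab1, a chaperone gene, was at 1038, 561 and 641 CPM, with -0.89 (-1.05 to -0.73). Nfkb1, a subunit of NF-κB, was at 122, 70.9 and 105 CPM, with -0.78 (-1.25 to -0.31). The 11 heat shock genes summed to 3583, 2649 and 2502 CPM. RNA of other classes differed between the libraries, and its part in the results was not tested: astrocyte markers summed to 786, 164 and 1786 CPM and microglial markers to 432, 304 and 1079.7 CPM, and at 3 d 9 of 9 and 9 of 9 were above their naive levels, with Slc1a2 the most abundant astrocyte marker. Without doublets they summed to 293, 164 and 357 CPM and to 444, 304 and 454 CPM, 3 of 19 members were higher (all genes 5.74%) and 2 lower (all genes 3.02%) at 24 h, and 3 of 20 members were higher (all genes 5.61%) and 4 lower (all genes 2.74%) at 3 d, when 8 of 31 other early response genes and 3 of 4 glucocorticoid targets were higher. Neuronal markers summed to 159, 12.8 and 24.2 CPM, or 144, 12.8 and 25.8 CPM without doublets. In all cells 10 of 11 were below their naive levels at both times. Oligodendrocyte markers summed to 178, 30.5 and 133 CPM, or 181, 30.5 and 140 CPM, with 8 of 8 below at 24 h and 4 at 3 d.

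In microglia 3 calls held in all 4 settings. Of all genes compared there, 2.56% were higher in all 4 settings at 24 h and 1.92% at 3 d. Cebpb, a C/EBP factor of inflammatory gene programs, and Ier3 were higher at 24 h and were near the naive level at 3 d. Gadd45b, a sensor of stress that binds MAP kinase kinases, was higher at 3 d. Cebpb had 169 CPM in the naive library, 285 CPM at 24 h and 178 CPM at 3 d and log2 ratios of 0.76 (0.63 to 0.89) and 0.078 (-0.026 to 0.18). Ier3 had 102 CPM in the naive library, 208 CPM at 24 h and 120.0 CPM at 3 d, with 1.02 (0.86 to 1.18) at 24 h and 0.23 (0.10 to 0.36) at 3 d. Gadd45b, a rare transcript, had 6.69 CPM in the naive library, 15.8 CPM at 24 h and 17.0 CPM at 3 d, with 1.34 (0.89 to 1.82) at 3 d, while at 24 h it had fewer than 100 UMIs and a ratio of 1.24 (0.62 to 1.85). Microglia were made up of 2 clusters. The smaller, led by the chemokine genes Cxcl10, Ccl12 and Ccl2, by Tnf and Egr2 and by the interferon-inducible genes Ifi204, Ifi27l2a and Ifi207, held 12.3% of the class in the naive library, 24.8% at 24 h and 25.2% at 3 d. Its summed member level was 24249.6, 18329 and 19609 CPM, against 14723, 15481 and 15294 CPM in the larger cluster. Egr2, a member, was thus among the genes that set the clusters apart. The make-up of the smaller cluster differed between the libraries: with finer clusters, at a resolution of 1, a cluster led by Tnf and Egr2 took 99, 61 and 133 of its cells in the naive, 24 h and 3 d libraries. A cluster led by Cxcl10 and Ifi genes took 20, 4 and 158, or 16.7%, 5.97% and 51.6%. Within the larger cluster Ier3 had 61.6, 65.7 and 46.3 CPM and within the smaller 361, 511 and 299.7 CPM, with log2 ratios at 24 h of 0.092 and 0.50, both smaller than in the class. Gadd45b likewise had 3.13, 2.69 and 3.52 CPM and 29.5, 43.7 and 49.8 CPM, with log2 ratios at 3 d of 0.17 and 0.76. Cebpb kept its direction in both, with 0.71 and 0.43 at 24 h. Without the smaller cluster the calls of Ier3 at 24 h and Gadd45b at 3 d ended, and that of Cebpb was kept. The share of the smaller cluster was above the naive one at both times, as Gadd45b was, while Ier3 was near its naive level at 3 d, and the part of the clusters in these ratios beyond the values given was not tested.

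At 24 h, 27 members had at least 100 UMIs in microglia, and 4 (14.8%) were at least 1.5-fold higher, against 6.0% of all genes tested, and 1 (3.70%) was at least 1.5-fold lower, against 3.44%. Their median log2 ratio was 0.21, that of all genes 0.054. At 3 d, 30 members had at least 100 UMIs, and 1 (3.33%) was at least 1.5-fold higher, against 2.87% of all genes tested, and 1 (3.33%) was at least 1.5-fold lower, against 1.01%, with medians of 0.15 and 0.062. Of the members compared at 3 d, 21 had a ratio above 0 and 9 below it, or 70.0% above 0, against 62.1% of all genes tested. In microglia, of the other early response genes, 10 of 47 were higher and 1 lower at 24 h, with a median log2 ratio of 0.17, and 4 of 53 were higher and 0 lower at 3 d, with a median of 0.15. In microglia, of the glucocorticoid targets, 4 of 6 were higher and 0 lower at 24 h, with a median log2 ratio of 1.66, and 5 of 8 were higher and 0 lower at 3 d, with a median of 1.01. In microglia, of the dissociation genes, 4 of 25 were higher and 1 lower at 24 h, with a median log2 ratio of -0.067, and 1 of 26 was higher and 0 lower at 3 d, with a median of -0.0080. Ddit4 led these lists. Ddit4 was at 7.21, 122 and 64.8 CPM, with 4.08 (3.67 to 4.52). Fkbp5 was at 94.6, 649 and 395 CPM, with 2.78 (2.65 to 2.90). Tnf, a cytokine gene and the highest gene of the dissociation list here, was at 43.8, 187 and 49.8 CPM, with 2.09 (1.89 to 2.30). Lower by at least 1.5-fold at 24 h were the AP-1 family gene Batf3 and the chaperone gene Hspa1a, and next came Hspa1b, within the limit. Batf3 was at 44.1, 26.0 and 44.1 CPM, with -0.76 (-1.15 to -0.39). Hspa1a, the lowest gene of the dissociation list here, was at 251, 163 and 198 CPM, with -0.63 (-0.78 to -0.48). Hspa1b was at 209, 148 and 173 CPM, with -0.50 (-0.66 to -0.34). The 11 heat shock genes summed to 2638, 2509 and 2431 CPM. Astrocyte markers, most of them UMIs of Slc1a3, summed to 431, 499 and 565 CPM, or 402, 403 and 528 CPM without doublets. Oligodendrocyte markers were lower after TIA, with 160, 58.7 and 104 CPM, or 146, 59.0 and 104 CPM without doublets. Neuronal markers were lower as well, with 40.8, 12.1 and 14.9 CPM, or 39.2, 12.2 and 15.0 CPM. The part of this RNA in the results was not tested. Without doublets, 4 of 27 members were higher (all genes 5.95%) and 1 lower (all genes 3.42%) at 24 h, and 1 of 30 members was higher (all genes 2.92%) and 1 lower (all genes 0.929%) at 3 d.

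In astrocytes Cebpd was higher at both times and Dusp1, a phosphatase of MAP kinases, was higher at 24 h, and these calls held in all 4 settings. Of all genes compared in astrocytes, 4.13% were higher in all 4 settings at 24 h and 1.89% at 3 d. In all cells 8 members were lower at 24 h and 9 at 3 d. Without called doublets all of these were within the limit or on its other side but Atf3 at 24 h, with -0.85, and Ier2 at 3 d, with -0.70, both with fewer than 100 UMIs. Cebpd had 19.1, 64.7 and 37.4 CPM, with log2 ratios of 1.76 (1.45 to 2.07) and 0.97 (0.72 to 1.23). Dusp1 had 37.9, 61.5 and 34.6 CPM, with 0.70 (0.43 to 0.97) at 24 h and -0.13 (-0.33 to 0.075) at 3 d. Cebpd thus stood highest at 24 h and was still above the naive library at 3 d, while Dusp1 was near its naive level. With a mitochondrial limit of 4% the ratio of Dusp1 at 24 h was 0.28, within the limit. Astrocytes were made up of 3 clusters whose shares differed between the libraries. A cluster led by Igfbp2 and Cxcl14 held 52.2%, 41.8% and 44.2% of the class, 1 led by Lama3 and Ptprt 36.2%, 49.0% and 45.3% and a small one the rest, with 22 cells at 24 h. The summed member level was 2031, 1436 and 1604 CPM in the first and 1098, 1814 and 1147 CPM in the second, so at 24 h they went opposite ways. Cebpd was higher in both, with 1.63 and 2.12 at 24 h and 0.81 and 1.09 at 3 d, and Dusp1 at 24 h had 0.53, within the limit, and 1.10. The part of the shares in the ratios was not tested. Microglial markers in astrocytes summed to 741, 309 and 509 CPM in the naive, 24 h and 3 d libraries, with all 9 present in each library, and 8 below the naive level at 24 h and 9 at 3 d. The class held 27 called doublets in the naive library, 1 at 24 h and 32 at 3 d, and without them the sums were 266, 246 and 264 CPM. Klf2 had 16.9, 2.46 and 6.02 CPM in all cells and 2.04, 1.42 and 2.58 CPM without doublets, and Zfp36, an mRNA decay factor, had 40.5, 10.5 and 16.9 CPM, and 7.81, 10.3 and 8.18 CPM without doublets. The naive level of both genes was thus several times lower once these cells were left out.

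At 24 h, 21 members had at least 100 UMIs in astrocytes. In all cells 3 (14.3%) were at least 1.5-fold higher, against 7.66% of all genes tested, and 8 (38.1%) were at least 1.5-fold lower, against 9.08%. The median log2 ratio was -0.023, beside 0.031 for all genes. Atf3, for example, had 22.6 CPM in the naive library and 1.41 CPM at 24 h and reached 100 UMIs through the naive library. At 3 d, 22 members had at least 100 UMIs, 1 (4.55%) was at least 1.5-fold higher, against 2.56% of all genes tested, and 9 (40.9%) were at least 1.5-fold lower, against 1.85%, and the median was -0.50, beside 0.039. Without doublets, 7 of 13 members were higher (all genes 8.12%) and 0 lower (all genes 7.88%) at 24 h with a median log2 ratio of 0.61, and 1 of 18 members was higher (all genes 2.83%) and 0 lower (all genes 1.06%) at 3 d with a median of 0.10. The 5 members higher at 24 h in addition to Cebpd and Dusp1 were Fos, Junb, Klf6, Btg1 and Rhob, named after their values were seen. Fos then had 30.5, 56.4 and 30.4 CPM and a log2 ratio of 0.89 (0.59 to 1.18), Junb 11.2, 17.0 and 13 CPM and 0.61 (0.075 to 1.13), and Klf6 38.4, 70.3 and 31.0 CPM and 0.87 (0.61 to 1.13). Btg1 had 175, 275 and 225 CPM and 0.65 (0.53 to 0.78), and Rhob 88.9, 147 and 101 CPM and 0.72 (0.54 to 0.90). At 3 d all 5 were within the limit. With finer clusters, at a resolution of 1, 8 members were higher and 0 lower in astrocytes at 24 h, but there a cluster of 458 cells with 9 astrocyte markers, led by Igfbp2 and Lcat, stayed unnamed, so that 2103 of 2560 astrocytes were left. For astrocytes, of the other early response genes, 15 of 44 were higher and 2 lower at 24 h, with a median log2 ratio of 0.38, and 4 of 49 were higher and 2 lower at 3 d, with a median of 0.060. For astrocytes, of the glucocorticoid targets, 6 of 8 were higher and 0 lower at 24 h, with a median log2 ratio of 1.25, and 5 of 9 were higher and 0 lower at 3 d, with a median of 0.61. For astrocytes, of the dissociation genes, 3 of 19 were higher and 7 lower at 24 h, with a median log2 ratio of -0.022, and 0 of 22 were higher and 4 lower at 3 d, with a median of -0.35. In astrocytes, Fkbp5 had 4.61, 110.0 and 39.0 CPM and a log2 ratio of 4.58 (4.10 to 5.08) at 24 h. Nfkbia, the inhibitor of NF-κB, was at 38.1, 161 and 61.9 CPM, with 2.08 (1.87 to 2.29). Sult1a1, a sulfotransferase gene, was at 15.5, 59.7 and 40.3 CPM, with 1.95 (1.61 to 2.28). Ccl3 and Rgs1, at the low end, belong to the dissociation list and are genes of microglia and other myeloid cells. Ccl3 was at 14.2, 1.05 and 8.64 CPM, with -3.75 (-6.04 to -2.17). Rgs1 was at 17.4, 2.11 and 8.14 CPM, with -3.05 (-4.51 to -1.89). Without doublets Ccl3 and Rgs1 had fewer than 100 UMIs, with -1.24 and 0.15. Then 3 of 16 dissociation genes were higher and 3 lower at 24 h, with a median of 0.30, and 1 of 18 was higher and 0 lower at 3 d, with -0.26, and 18 of 42 other early response genes were higher and 1 lower at 24 h. The 11 heat shock genes summed to 1316, 1264 and 1022 CPM.

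In oligodendrocytes Arc, an activity-regulated gene best known from synapses, was lower at both times, and its call at 3 d held in all 4 settings. Of all genes compared in the class at 3 d, 1.7% were lower in all 4 settings. Fos, the AP-1 subunit, was higher at 24 h with and without doublets, and had fewer than 100 UMIs without its 5 highest cells. Of the 10 members that were higher at 3 d in all cells, 5 were still past the limit without doublets but with fewer than 100 UMIs, and 5 were within it. The former were Fos, Junb, Klf2, Dusp1 and Zfp36l1, with 0.77, 0.75, 1.01, 0.96 and 1.60. Arc had 29.2, 16.6 and 10.1 CPM, with log2 ratios of -0.81 (-1.58 to -0.10) and -1.54 (-2.14 to -0.96). Leaving out the 5 cells with most Arc gave -1.43 at 24 h with fewer than 100 UMIs and -1.58 at 3 d, and with a mitochondrial limit of 4% Arc had fewer than 100 UMIs at 3 d and -1.42. Fos had 16.1, 121 and 61.7 CPM, with 2.91 (2.44 to 3.39) and 1.94 (1.5 to 2.40). At 24 h, where the class had 72 cells, its 5 highest cells held 91.7% of the Fos UMIs, and the log2 ratio without the 5 highest of each library was 0.41. Dusp1 had 13.1, 54.1 and 40.8 CPM, with 2.05 (1.47 to 2.64) and 1.64 (1.14 to 2.17), and without the 5 highest cells 0.12 at 24 h. Junb, another AP-1 subunit, had 17.9, 64.9 and 36.2 CPM, with 1.86 (1.35 to 2.37) and 1.01 (0.56 to 1.48), and 0.74 without them at 24 h. With a mitochondrial limit of 4%, which left 9 cells at 24 h, Fos had -1.35 and Junb -2.001 at that time, the opposite direction. Without the 2% of cells with the most UMIs of each gene, which are 2 cells at 24 h, the ratios of Fos, Dusp1 and Junb at 24 h were 1.14, 0.92 and 1.69, and without doublets 3.51, 2.47 and 2.86. Of these 6 values, only that of Fos without doublets rested on at least 100 UMIs.

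At 24 h, 10 members had at least 100 UMIs in oligodendrocytes and 3 (30.0%) were at least 1.5-fold higher, against 7.79% of all genes tested, and 1 (10.0%) was at least 1.5-fold lower, against 10.2%. The median log2 ratio was -0.0060, for all genes -0.020. At 3 d, 15 members had at least 100 UMIs and 10 (66.7%) were at least 1.5-fold higher, against 6.24% of all genes tested, and 1 (6.67%) was at least 1.5-fold lower, against 2.53%, with a median of 0.96, for all genes 0.034. Klf2, for example, had 5.47 CPM in the naive library and 25.6 CPM at 3 d and reached 100 UMIs mostly through the 3 d library. Without doublets, 1 of 6 members was higher (all genes 8.15%) and 1 lower (all genes 9.55%) at 24 h, and 0 of 6 members were higher (all genes 4.96%) and 2 lower (all genes 2.78%) at 3 d, with median log2 ratios of 0.029 and -0.070. At 3 d 6 of 31 other early response genes were then higher and 2 of 15 dissociation genes, with 6 lower. The lower members at 3 d were Arc and Jun, which had 171, 186 and 103 CPM without doublets and a log2 ratio of -0.74 (-0.95 to -0.53). In all cells Jun had 218, 196 and 174 CPM, with -0.33 (-0.48 to -0.17) at 3 d. At 3 d the sums of the markers of every other compared class were above the naive library: microglial markers summed to 406, 378 and 570.0 CPM, endothelial markers to 75.3, 8.32 and 155 CPM and pericyte markers to 24.6, 9.16 and 109 CPM, with all 9, 8 and 8 of them higher, while of the astrocyte markers, 454, 219.7 and 647 CPM in sum, 8 of 9 were. Of the neuronal markers, 133, 264 and 143 CPM in sum, 2 of 11 were above the naive library at 3 d and 8 below it, and most of the sum at 24 h and 3 d was Tubb3, with 40.7, 259.7 and 102 CPM. Cldn5 or Flt1, Vtn, and Slc1a2 or Slc1a3 were the most abundant endothelial, pericyte and astrocyte markers. Without doublets the sums were 205, 156 and 203 CPM for microglial, 7.99, 7.66 and 16.5 CPM for endothelial, 5.66, 9.37 and 85.8 CPM for pericyte, 257, 221 and 417 CPM for astrocyte and 56.0, 269 and 119 CPM for neuronal markers, so at 3 d all but the microglial ones were still above the naive library. The part of this RNA in the results was not tested further. Called doublets made up 6.03% of the class in the naive library, 1.39% at 24 h and 8.80% at 3 d. Within oligodendrocytes, of the other early response genes, 5 of 28 were higher and 2 lower at 24 h, with a median log2 ratio of 0.13, and 10 of 36 were higher and 1 lower at 3 d, with a median of 0.33. Within oligodendrocytes, of the glucocorticoid targets, 5 of 7 were higher and 0 lower at 24 h, with a median log2 ratio of 3.37, and 6 of 7 were higher and 0 lower at 3 d, with a median of 1.96. Within oligodendrocytes, of the dissociation genes, 2 of 14 were higher and 5 lower at 24 h, with a median log2 ratio of -0.37, and 3 of 16 were higher and 6 lower at 3 d, with a median of -0.50. In oligodendrocytes, Fkbp5 had 7.59, 159.8 and 65.8 CPM and a log2 ratio of 4.40 (3.79 to 5.06) at 24 h. Sgk1, a kinase gene, was at 108, 1697 and 838 CPM, with 3.97 (3.81 to 4.13). Nfkbia was at 24.6, 275 and 112 CPM, with 3.48 (3.13 to 3.85). Lowest at 24 h were the histone genes Hist1h1c and Hist1h2bc, both of the dissociation list, and the CREB gene Creb1. Hist1h1c was at 50.1, 14.1 and 76.4 CPM, with -1.82 (-2.64 to -1.10). Hist1h2bc was at 272, 114 and 192 CPM, with -1.25 (-1.52 to -0.99). Creb1 was at 88.1, 45.8 and 83.0 CPM, with -0.94 (-1.39 to -0.52). The 11 heat shock genes summed to 5710.1, 3830.3 and 3724 CPM.

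In the neuron-like class Klf6 was higher at 3 d, and it was the only call of the class that held in all 4 settings. Of all genes compared in the class at 3 d, 0.342% were higher in all 4 settings. Fos and Ier2, a nuclear early response protein, were higher at 24 h with and without doublets, but within the limit without their 5 highest cells of each library. Zfp36 and Zfp36l1, which speed the decay of mRNAs with AU-rich elements, were lower at 24 h in all cells and had fewer than 100 UMIs without doublets. Klf6 had 50.8, 44.0 and 76.9 CPM, with log2 ratios of -0.20 (-0.69 to 0.25) and 0.60 (0.35 to 0.84), or 0.56 at 3 d when scaled to the genes' median ratio, just within the limit. Fos had 66.1, 104 and 90.2 CPM, with 0.65 (0.33 to 0.96) at 24 h, and 0.33 without the 5 highest cells, but 0.91 without the 2% highest of each library. For Ier2 the levels were 51.6, 85.1 and 60.6 CPM, the ratio at 24 h 0.72 (0.36 to 1.07), and -0.21 without the 5 highest cells and 0.55 without the 2% highest. Fosb, an AP-1 subunit, had 9.40, 25.4 and 23.1 CPM, with 1.30 (0.78 to 1.82) at 3 d, and 1.03 with fewer than 100 UMIs without doublets. Zfp36 had 16.9, 4.89 and 10.4 CPM, with -1.79 (-3.44 to -0.52) and -0.71 (-1.31 to -0.14), and Zfp36l1 28.5, 5.87 and 31.7 CPM, with -2.28 (-3.75 to -1.13) at 24 h. Without doublets the ratios at 24 h were -1.04 and -1.03. Btg1 had the most UMIs of the members here, 660.3, 956 and 816 CPM, with 0.53 (0.43 to 0.64) and 0.30 (0.23 to 0.38), both within the limit. Dusp1 was also within it, with 55.0, 37.2 and 48.8 CPM and -0.57 (-1.09 to -0.077) at 24 h, and so was Dusp6 at 3 d, with 12.5, 7.83 and 8.87 CPM and -0.49 (-1.16 to 0.14).

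At 24 h, 14 members had at least 100 UMIs in the neuron-like class, where 2 (14.3%) were at least 1.5-fold higher, against 2.53% of all genes tested, and 2 (14.3%) were at least 1.5-fold lower, against 8.46%. The median log2 ratio of the members was -0.21 and that of all genes -0.011. At 3 d, 16 members had at least 100 UMIs, where 2 (12.5%) were at least 1.5-fold higher, against 1.38% of all genes tested, and 1 (6.25%) was at least 1.5-fold lower, against 2.09%, and the medians were 0.073 and 0.035. Without doublets, 2 of 12 members were higher (all genes 2.93%) and 0 lower (all genes 5.32%) at 24 h, and 1 of 13 members was higher (all genes 1.54%) and 0 lower (all genes 2.13%) at 3 d. Microglial markers summed to 611, 159 and 498 CPM and astrocyte markers to 990.3, 436 and 1079 CPM in the naive, 24 h and 3 d libraries, and 8 of 9 and 8 of 9 were below their naive levels at 24 h, with Slc1a2 the most abundant astrocyte marker and the microglial marker P2ry13 at 0. Without doublets the sums were 295, 159 and 216 CPM and 281, 436 and 546 CPM, so that of the astrocyte markers was then above the naive library at 24 h, and their part in the results was not tested. Endothelial markers summed to 121, 10.8 and 18.0 CPM, or 18.1, 10.8 and 18.1 CPM without doublets. Pericyte markers summed to 61.9, 12.7 and 36.7 CPM, or 31.7, 12.7 and 18.1 CPM. Oligodendrocyte markers summed to 159, 40.1 and 85.2 CPM, or 162, 40.1 and 86.4 CPM. The part of this RNA was not tested either. The class had 41 called doublets in the naive library, 0 at 24 h and 14 at 3 d. Here, of the other early response genes, 2 of 41 were higher and 4 lower at 24 h, with a median log2 ratio of -0.018, and 1 of 43 was higher and 0 lower at 3 d, with a median of 0.099. Here, of the glucocorticoid targets, 1 of 6 was higher and 2 lower at 24 h, with a median log2 ratio of -0.31, and 1 of 6 was higher and 0 lower at 3 d, with a median of 0.18. Here, of the dissociation genes, 0 of 14 were higher and 2 lower at 24 h, with a median log2 ratio of -0.013, and 0 of 16 were higher and 0 lower at 3 d, with a median of -0.020. Nfil3, a leucine zipper repressor, had 22.4, 38.2 and 22.2 CPM and a log2 ratio of 0.77 (0.21 to 1.30) at 24 h. Ddit4 was at 20.8, 32.3 and 16.6 CPM, with 0.63 (0.030 to 1.20). Atf4, a factor of the integrated stress response, was at 50.2, 76.3 and 59.2 CPM, with 0.60 (0.22 to 0.97). Lowest were Maf, the phagocytic receptor gene Mertk and Zfp36l2. Maf was at 34.9, 4.89 and 26.9 CPM, with -2.83 (-4.47 to -1.59). Mertk was at 74.3, 12.7 and 78.7 CPM, with -2.55 (-3.47 to -1.76). Zfp36l2 was at 27.5, 11.7 and 24.8 CPM, with -1.23 (-2.21 to -0.38). Without doublets Mertk and Zfp36l2 had fewer than 100 UMIs, with -0.24 and -0.43. At 24 h 4 of 39 other early response genes were then higher and 1 lower, with a median of -0.030, and 1 of 4 glucocorticoid targets was higher and 0 lower, with 0.14. Heat shock genes summed to 3791, 3855 and 3959 CPM.

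Dissociation was not measured apart from the tissue in any class, and its part in these differences cannot be told apart from that of TIA.

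**Figure D3:**
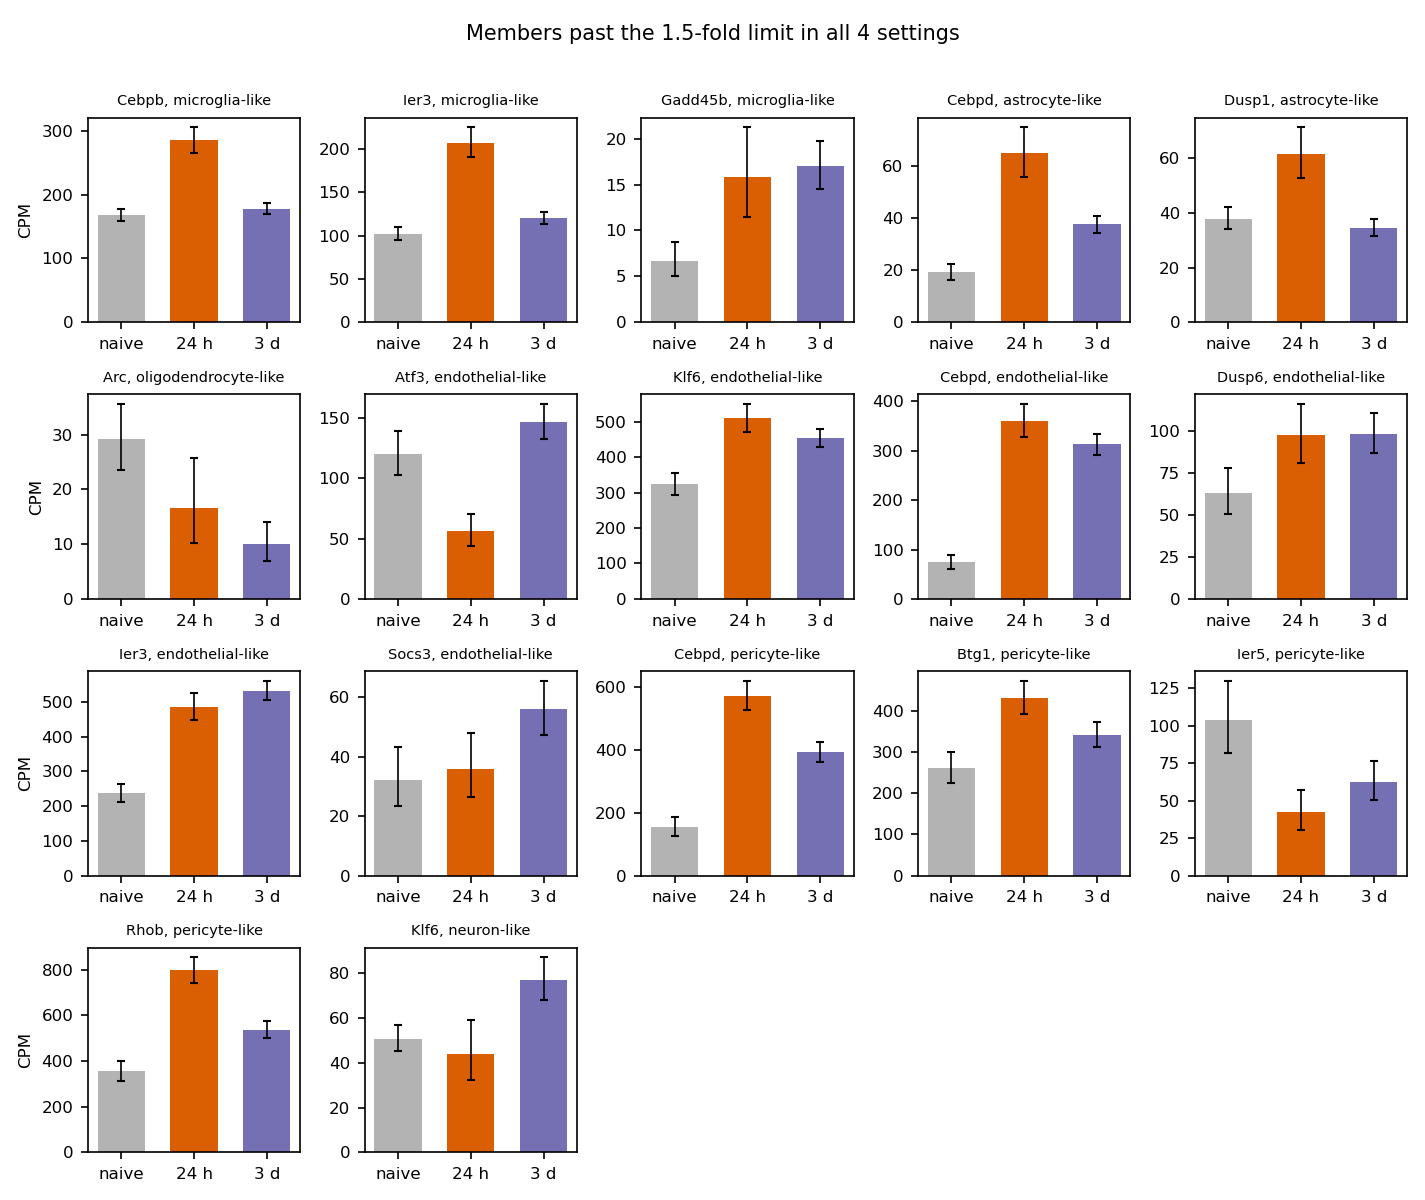
CPM in the naive, 24 h and 3 d libraries (1 bar each, no replicates) for each pair of member and class with a call that held in all 4 settings at 24 h, at 3 d or at both; error bars are exact 95% Poisson intervals of the UMI count and cover counting error only. Cebpd in endothelial cells goes from 73.9 CPM to 360.4 CPM and 313 CPM, while Atf3 in endothelial cells is lower at 24 h. Arc in oligodendrocytes and Ier5 in pericytes are lower at both times, and their calls held at 3 d and not at 24 h. In microglia the bars of Ier3 and Gadd45b join 2 clusters whose shares differ between the libraries.

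By role, the C/EBP factors had the most calls that held. Both factors bind promoters of acute phase and inflammatory genes as leucine zipper dimers. Of 14 values that could be compared for Cebpb and Cebpd, 8 were at least 1.5-fold higher (all genes 5.1%) and 0 lower (all genes 4.34%), and 7 of the higher ones held in all 4 settings. Cebpd made up all of these but that of Cebpb in microglia, in astrocytes, endothelial cells and pericytes at both times. In microglia it had 101, 107 and 109 CPM, with 0.088 (-0.11 to 0.28) and 0.11 (-0.025 to 0.24), so there the libraries hardly differed. In oligodendrocytes it had too few UMIs for a call, with 6.08, 15.8 and 16.4 CPM and log2 ratios of 1.38 (0.39 to 2.36) and 1.43 (0.67 to 2.24), and in the neuron-like class 4.10, 1.96 and 5.03 CPM. The order of its levels at 24 h was pericytes, endothelial cells, microglia, astrocytes, oligodendrocytes and neuron-like cells, and the same at 3 d, where in the naive library microglia stood above endothelial cells. Cebpb was also higher in astrocytes at 24 h, with 8.99, 19.7 and 8.78 CPM and a log2 ratio of 1.13 (0.61 to 1.64), or 2.02 without doublets, where it had fewer than 100 UMIs.

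The 6 AP-1 subunits, whose dimers bind TPA-responsive elements, gave 60 values, of which 6 were at least 1.5-fold higher (all genes 5.1%) and 6 lower (all genes 4.34%), and none of these held in all 4 settings, where 2.57% and 2.48% of the values of all genes did. Fos was lower in pericytes at 3 d, with 250.1, 235 and 120.1 CPM and -1.06 (-1.36 to -0.75), and so was Fosb, with 145, 137 and 83.9 CPM and -0.79 (-1.18 to -0.40). Without the 5 highest cells of each library, these ratios were -0.15 and -0.52, without the 2% highest -0.39 and -0.82, and the 5 highest naive cells held 60.8% of the Fos UMIs. In astrocytes Fosb had 16.5, 7.38 and 9.84 CPM, with -1.16 (-1.90 to -0.50) and -0.75 (-1.09 to -0.40), and Junb 42.4, 19.0 and 25.6 CPM, with -1.16 (-1.60 to -0.74) and -0.73 (-0.94 to -0.51). Without doublets their ratios turned to 0.45 and 0.61 at 24 h, the opposite direction. In microglia Fos had 576, 667 and 679 CPM, with 0.21 (0.13 to 0.29) and 0.24 (0.18 to 0.29), but within the clusters its ratio at 24 h was 0.30 in the larger and -0.68 in the smaller. Jund, the subunit that is expressed without a stimulus, had 2038, 1734 and 1909 CPM there, with -0.23 (-0.28 to -0.19) at 24 h. Fosl2 could be compared in microglia at both times and in endothelial cells at 3 d, with ratios between -0.015 and 0.27.

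Atf3 and Maff are leucine zipper partners of AP-1, Atf3 mostly a repressor and Maff a small MAF without an activation domain. Of their 9 values, 1 was at least 1.5-fold higher (all genes 5.1%) and 3 lower (all genes 4.34%). Maff was higher in endothelial cells at 24 h, with 25.1, 51.5 and 31.8 CPM and 1.04 (0.42 to 1.67). Without the 10% of cells with most marker UMIs of other classes the ratio was 0.88 with fewer than 100 UMIs. Atf3 in astrocytes had 22.6, 1.41 and 8.64 CPM, with -4.01 (-5.90 to -2.63) and -1.39 (-1.72 to -1.06), and without doublets 1.92, 1.06 and 1.70 CPM, which is too few UMIs for a call. In microglia, the class with the most Atf3, Atf3 had 595, 500.2 and 521 CPM, with -0.25 (-0.34 to -0.16) and -0.19 (-0.25 to -0.13), within the limit.

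The EGR factors are zinc finger proteins that growth factors and synaptic activity switch on. Of 15 values, 1 was at least 1.5-fold higher (all genes 5.1%) and 4 lower (all genes 4.34%), and none held in all 4 settings. Egr1 in microglia was above the naive library at both times but within the limit, with 228, 332 and 329 CPM and 0.54 (0.42 to 0.66) and 0.53 (0.44 to 0.61). In endothelial cells it was lower at 3 d, with 116, 134 and 77.4 CPM and -0.59 (-0.89 to -0.28), which became -0.26 without the 5 highest cells and -0.49 without the 2% highest. Its values in astrocytes, 15.8, 10.2 and 9.63 CPM with -0.64 (-1.27 to -0.052) and -0.72 (-1.07 to -0.37), and in oligodendrocytes, 13.1, 25 and 28.1 CPM with 1.11 (0.58 to 1.66) at 3 d, were past the limit in opposite directions. Without doublets the ratio in astrocytes was 0.75 at 24 h, the opposite direction, with fewer than 100 UMIs, and at 3 d the ratios were -0.13 and 0.29. Egr3 was lower in microglia at 24 h, with 13.8, 7.33 and 9.79 CPM and -0.91 (-1.68 to -0.21), and rested on few UMIs, since 85.0% of the 24 h UMIs lay in 5 cells. Egr2, a factor of myeloid cells and myelination, reached 100 UMIs in microglia, with 18.5, 24.6 and 22.5 CPM and 0.41 (-0.034 to 0.83) and 0.28 (-0.030 to 0.59).

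Among the KLF factors, 25 values could be compared, 3 were at least 1.5-fold higher (all genes 5.1%) and 2 lower (all genes 4.34%), and the 2 that held were those of Klf6 in endothelial cells and in the neuron-like class. Klf2 stood at 5.47, 3.33 and 25.6 CPM in oligodendrocytes, with 2.22 (1.48 to 3.04) at 3 d, and without doublets had 0.999, 1.70 and 2.02 CPM. In astrocytes the log2 ratios of Klf2 in all cells were -2.78 (-4.12 to -1.70) and -1.49 (-1.89 to -1.09). Both classes thus had Klf2, an endothelial and microglial gene, mostly in cells called doublets, in the naive library of astrocytes and the 3 d library of oligodendrocytes. In endothelial cells themselves Klf2 was within the limit, with 0.27 (0.19 to 0.35) and -0.037 (-0.11 to 0.037). Klf4, which like Klf2 marks quiescent endothelium, had 775, 704 and 652 CPM there, with -0.14 (-0.27 to -0.011) and -0.25 (-0.36 to -0.14), and 136, 202 and 166 CPM in microglia, with 0.57 (0.42 to 0.72) and 0.28 (0.17 to 0.40).

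The NR4A orphan nuclear receptors were rare. Of 7 values, 1 was at least 1.5-fold higher (all genes 5.1%) and 2 lower (all genes 4.34%), and none held in all 4 settings. Nr4a1, a receptor that limits inflammatory activation of myeloid cells, had 23.0, 34.8 and 32.8 CPM in microglia and a log2 ratio of 0.60 (0.22 to 0.96) at 24 h, or -0.21 without its 5 highest cells and 0.19 without the 2% highest. Within the microglial clusters its ratio was 1.12 in the larger and -0.98 in the smaller. Nr4a2 was lower in microglia at 3 d, with 7.59, 4.77 and 4.40 CPM and -0.79 (-1.39 to -0.20), and had fewer than 100 UMIs and -0.53 without the 2% highest. In endothelial cells Nr4a1 had 41.6, 39.0 and 27.0 CPM and was lower at 3 d, with -0.62 (-1.14 to -0.10), or -0.53 without doublets. Nr4a3 had at most 27 UMIs in any class and library.

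Dusp1 and Dusp6 encode phosphatases that switch off MAP kinases, Dusp1 in the nucleus and Dusp6 in the cytosol. Of 21 values, 6 were at least 1.5-fold higher (all genes 5.1%) and 1 lower (all genes 4.34%). Dusp1 in microglia had 357, 551 and 431 CPM and 0.63 (0.53 to 0.72) at 24 h, which became 0.53 without the 5 highest cells and 0.64 without the 2% highest. Within the clusters the ratio was 0.62 in the larger and -0.0099 in the smaller. In pericytes it went the other way, with 101, 57.2 and 73.8 CPM and -0.82 (-1.34 to -0.30) at 24 h, and without the 5 highest cells it had fewer than 100 UMIs and a ratio of -1.003, and with a mitochondrial limit of 4% the ratio was -0.54. At 3 d Dusp1 in pericytes was within the limit in all cells, with -0.45, and past it without doublets, with -0.68 (-1.15 to -0.20). In endothelial cells Dusp1 was near its naive level, with 0.095 (-0.13 to 0.32) and 0.051 (-0.14 to 0.24). The classes thus did not share a direction for Dusp1, and the difference between classes was not tested.

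Zfp36 and Zfp36l1 bind AU-rich mRNAs, and Btg1 and Btg2 recruit the deadenylase complex. Of 46 values of these genes, 5 were at least 1.5-fold higher (all genes 5.1%) and 6 lower (all genes 4.34%), and Btg1 in pericytes at 24 h was the value that held. In astrocytes Btg1 was above the naive library, with 187, 279 and 232 CPM and 0.58 (0.46 to 0.70) and 0.31 (0.23 to 0.40), just within the limit at 24 h. Zfp36 there had log2 ratios of -1.94 (-2.53 to -1.40) and -1.26 (-1.50 to -1.02) in all cells, and Btg2, with 76.6, 35.8 and 63.1 CPM, had -1.10 (-1.41 to -0.79) at 24 h. Both were near 0 or above it without doublets, with 0.40 and 0.012. In oligodendrocytes at 3 d, Zfp36 had 17.6, 22.5 and 34.2 CPM and 0.96 (0.49 to 1.43), Zfp36l1 18.5, 4.99 and 38.2 CPM and 1.04 (0.60 to 1.51), and Btg2 34.0, 25.8 and 67.2 CPM and 0.98 (0.65 to 1.32). Btg1 in that class had 29.5, 32.5 and 55.1 CPM and 0.90 (0.54 to 1.27). Without doublets the ratios at 3 d were -0.57, 1.60, 0.20 and 0.27 in this order, so that of Zfp36l1 was larger than in all cells, and only Btg1 still had 100 UMIs.

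The IER genes encode short-lived nuclear or membrane proteins of growth and stress. Of 27 values, 5 were at least 1.5-fold higher (all genes 5.1%) and 6 lower (all genes 4.34%), and 3 higher values, all of Ier3, and 1 lower value, of Ier5, held in all 4 settings. Ier5 was also lower in endothelial cells at 24 h, with 244, 154 and 194 CPM and -0.66 (-0.92 to -0.40). The ratio was -0.58 without the 10% of cells with most marker UMIs of other classes. In astrocytes Ier5 had 42.8, 27.4 and 27.3 CPM, with -0.64 (-1.01 to -0.29) and -0.65 (-0.86 to -0.44), and 0.0054 and -0.31 without doublets. In oligodendrocytes it had 12.5, 8.32 and 23.3 CPM, with 0.90 (0.34 to 1.48) at 3 d, and 0.13 with fewer than 100 UMIs without doublets. Ier2 was below its naive level in pericytes but within the limit, with 122, 85.7 and 91.3 CPM and -0.50 (-0.95 to -0.060) and -0.41 (-0.81 to -0.010), and in astrocytes it had 9.10, 7.73 and 5.03 CPM and -0.86 (-1.34 to -0.38) at 3 d, or -0.70 with fewer than 100 UMIs without doublets.

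Rhob, Gadd45b and Socs3 act on the cytoskeleton, on stress kinases and on cytokine signals. Of 20 values, 5 were at least 1.5-fold higher (all genes 5.1%) and 1 lower (all genes 4.34%), and 4 of the higher ones held in all 4 settings. Gadd45b was higher in pericytes at 3 d, with 30.4, 66.0 and 59.7 CPM and 0.97 (0.29 to 1.72), and without its 5 highest cells of each library it had fewer than 100 UMIs and a ratio of 1.20. In endothelial cells Gadd45b was below the naive level, with 53.1, 36.7 and 35.4 CPM and -0.53 (-1.09 to 0.013) and -0.58 (-1.04 to -0.13), and past the limit without doublets, with -0.59 (-1.15 to -0.041) and -0.67 (-1.14 to -0.21). Rhob in oligodendrocytes had 594, 470.3 and 575 CPM, with -0.34 (-0.47 to -0.20) at 24 h. In astrocytes Socs3 had 6.97, 2.46 and 4.11 CPM and -0.76 (-1.31 to -0.22) at 3 d, which turned to 0.97 without doublets. Of the genes of neuronal activity, Arc had no UMI in the neuron-like class and Npas4 at most 4 UMIs per library, in a class marked by Dcx, Gad1 and Gad2.

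All 33 members are protein-coding genes, on 16 chromosomes of mm10, and their spans run from 1240 to 56539 bases with a median of 4259. Cebpd, the member with the most calls that held in all 4 settings, is a gene of 1 exon at chr16:15887286-15891031 (+ strand, ENSMUSG00000071637). Ier3 lies at chr17:35821684-35822923 (+ strand, ENSMUSG00000003541) and Rhob at chr12:8497661-8500009 (- strand, ENSMUSG00000054364). RefSeq promoter windows from 250 bases before to 50 after each RefSeq start, of the build GRCm38, were matched by symbol to 28 members, and Egr1, Egr3, Cebpd, Ier2 and Arc have no entry. Windows were searched on both strands for binding motifs of factors known to act on these genes, and the share of all 27025 genes with a window is given beside each. The CRE, TGACGTCA, bound by CREB, was found in 3 of 28 members (10.7%) and in 2.03% of all genes. The CArG box, bound by SRF, was found in 2 of 28 members (7.14%) and in 1.81%. The AP-1 motif TGANTCA was found in 1 of 28 members (3.57%) and in 8.97%, and the EGR motif GCGTGGGCG in 1 of 28 members (3.57%) and in 0.707%. The glucocorticoid response element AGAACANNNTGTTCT was found in 0 of 28 members and in 0.0111% of all genes. A match describes these letters in this window and is not a site or a cause.

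Sites of members with calls are shown in 30-base stretches, read 5′ to 3′ on the strand of the gene, with the motif in capitals.
Dusp1, CRE, chr17:26508597-26508626 (- strand): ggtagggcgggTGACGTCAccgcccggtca
Btg2, CRE, chr1:134079303-134079332 (- strand): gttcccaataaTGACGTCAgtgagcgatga
Maff, CRE, chr15:79347480-79347509 (+ strand): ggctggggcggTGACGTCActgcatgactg
Maff, EGR, chr15:79347422-79347451 (+ strand): cctcactcggGCGTGGGCGgggtctcggct
Zfp36, CArG box, chr7:28379267-28379296 (- strand): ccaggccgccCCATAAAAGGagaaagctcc
Zfp36l1, AP-1, chr12:80113124-80113153 (- strand): gaccgcatggcTGATTCAacctcagtgtca
The CRE of Dusp1 lies 136 bases before the RefSeq start, that of Btg2 159 bases and that of Maff 22 bases. The annotation that gave the spans starts Dusp1, Maff and Zfp36 farther upstream, and in it the sites shown for these 3 lie inside the gene.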

How the data were processed

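The deposited matrices hold counts, that is raw UMI counts per gene and cell made by the authors with Cell Ranger on mm10, as version 7.1.0 per the file headers and 3.1.0 per the labels. Cells with at least 500 genes and at most 7% mitochondrial UMIs were clustered in Seurat 5.3.0 under R 4.3.3 (2000 variable features, among them 18 members, 20 principal components, resolution 0.5), and clusters were named by at least 3 markers found in at least 10% of cells at 2-fold. Scrublet, run through scanpy 1.11.5, gave the doublet calls, and sums, exact binomial and Poisson intervals and plots were made with Python 3.11.15, numpy 2.4.6, scipy 1.17.1, pandas 2.3.3 and matplotlib 3.10.9, with a floor of 3 UMIs for a library at 0. The kept cells held 35026787, 11803258 and 46270816 UMIs in the naive, 24 h and 3 d libraries, and no test was made, as each group has 1 library. Values are given for members past the limit in at least 2 classes at the same time or 2-fold apart in any class, for the 3 highest and 3 lowest ratios of each class and time, and for the 3 highest and 3 lowest genes of the other lists at 24 h, of which 1 gene is not reported here. The members and lists were chosen with earlier results of these data known. The alternatives were other cell filters, doublets, resolutions, scalings, weights, UMI limits and folds, a clustering without the members, cells with few marker UMIs of other classes and the removal of the 5 cells with most UMIs. The removal of the 10% of cells with most such markers, of the smaller microglial cluster and of the 2% of cells with most UMIs of a gene was chosen after seeing the data.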

Additional observations from a re-analysis of the deposited data

Results flagged for a closer look

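Some members were past the 1.5-fold limit in opposite directions in different cell classes at the same time, as log2 ratios of TIA to naive in all cells. Junb at 24 h had 1.86 in oligodendrocytes and -1.16 in astrocytes. At 24 h, Dusp1 stood at 2.05 in oligodendrocytes against -0.82 in pericytes. For Fos at 3 d the ratios were 1.94 in oligodendrocytes and -1.06 in pericytes. Fosb at 3 d had 1.30 in the neuron-like class and -0.79 in pericytes. At 3 d, Junb stood at 1.01 in oligodendrocytes against -0.73 in astrocytes. For Egr1 at 3 d the ratios were 1.11 in oligodendrocytes and -0.72 in astrocytes. Klf2 at 3 d had 2.22 in oligodendrocytes and -1.49 in astrocytes. At 3 d, Zfp36 stood at 0.96 in oligodendrocytes against -1.26 in astrocytes. For Ier5 at 3 d the ratios were 0.90 in oligodendrocytes and -0.73 in pericytes. Socs3 at 3 d had 0.79 in endothelial cells and -0.76 in astrocytes. The difference between the classes was not tested in any of these pairs, as each group has 1 library. Without called doublets, Dusp1 in pericytes at 24 h, Fos, Fosb and Ier5 in pericytes at 3 d and Socs3 in endothelial cells kept the call. In oligodendrocytes Junb and Dusp1 then had 2.86 and 2.47 at 24 h, and Fos, Junb and Klf2 0.77, 0.75 and 1.01 at 3 d, and Fosb in the neuron-like class had 1.03, all past the limit but with fewer than 100 UMIs. In astrocytes Junb at 24 h and Socs3 at 3 d, the latter with fewer than 100 UMIs, were past the limit in the other direction, with 0.61 and 0.97, and the remaining ratios were within it. Without the 5 cells of each library with the most UMIs of the gene, Fos and Fosb in pericytes had -0.15 and -0.52, within the limit, and Dusp1 in oligodendrocytes at 24 h had 0.12, with fewer than 100 UMIs, and only Ier5 in pericytes and Socs3 in endothelial cells held in all 4 settings of the report. With a mitochondrial limit of 4%, Junb in oligodendrocytes at 24 h, where 9 cells were left, had -2.001. No member was then called lower in pericytes at either time.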

How the results depend on the processing

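Counts of members past the limit, medians of their log2 ratios that moved and single log2 ratios that changed sign are given by setting, and the cause was not tested. With only cells past both cell limits left out, neuron-like cells at 3 d had 0 lower. With a mitochondrial limit of 4%, oligodendrocytes at 24 h had 0 higher, 0 lower, Fos -1.35 and Junb -2.001, and oligodendrocytes at 3 d had 2 higher and a median of -0.016. Pericytes at 24 h had 0 lower, and pericytes at 3 d had 0 lower. Without called doublets, astrocytes at 24 h had 7 higher, 0 lower, a median of 0.61, Fosb 0.45, Junb 0.61, Egr1 0.75, Zfp36 0.40, Btg2 0.012 and Ier5 0.0054, and astrocytes at 3 d had 0 lower, a median of 0.10, Fosb 0.22, Junb 0.22, Klf2 0.34, Zfp36 0.068 and Socs3 0.97. Oligodendrocytes at 24 h had 1 higher, and oligodendrocytes at 3 d had 0 higher, 2 lower, a median of -0.070 and Zfp36 -0.57. Neuron-like cells at 24 h had 0 lower, and neuron-like cells at 3 d had 1 higher and 0 lower. At a clustering resolution of 1, astrocytes at 24 h had 8 higher, 0 lower, a median of 0.65, Fosb 0.51, Junb 0.65, Egr1 0.78, Zfp36 0.69 and Ier5 0.048, and astrocytes at 3 d had 0 lower, a median of 0.18, Fosb 0.24, Junb 0.42, Atf3 0.99, Klf2 0.61, Zfp36 0.20 and Socs3 0.91. Neuron-like cells at 24 h had 1 higher. When clustered without the members, endothelial cells at 3 d had 1 lower. Scaled to the genes' median ratio, microglia at 24 h had 2 higher, and neuron-like cells at 3 d had 1 higher. With every cell weighted equally, microglia at 3 d had 0 lower, and astrocytes at 24 h had 5 higher, 4 lower, a median of 0.27 and Junb 0.27. Astrocytes at 3 d had 4 lower, and endothelial cells at 24 h had a median of -0.14. Endothelial cells at 3 d had 1 lower. Without the 5 cells with most UMIs of a gene, microglia at 24 h had 2 higher, 0 lower, a median of 0.017 and Nr4a1 -0.21, and microglia at 3 d had 0 lower. Astrocytes at 24 h had 5 lower, and astrocytes at 3 d had 3 lower, a median of -0.15 and Egr1 0.011. Oligodendrocytes at 24 h had 0 higher and a median of -0.44, and oligodendrocytes at 3 d had 2 higher, a median of 0.061 and Zfp36 -0.11. Endothelial cells at 3 d had 0 lower, and pericytes at 24 h had 0 lower. Pericytes at 3 d had 1 lower, and neuron-like cells at 24 h had 0 higher, 6 lower and Ier2 -0.21. Neuron-like cells at 3 d had 1 higher and 0 lower. In cells with at most 1 UMI of other classes' markers, microglia at 24 h had 1 higher, 6 lower, a median of -0.30 and Dusp1 -0.19, and microglia at 3 d had 0 higher, 0 lower, a median of -0.037 and Nr4a2 1.13. Astrocytes at 24 h had 1 higher, 0 lower, a median of 1.32, Fosb 2.92 and Btg2 0.11, and astrocytes at 3 d had 0 higher, 1 lower and a median of 0.015. Pericytes at 24 h had 1 higher and a median of -0.89, and pericytes at 3 d had 0 higher, 1 lower and a median of -1.07. Neuron-like cells at 24 h had 0 higher, 0 lower and Ier2 -0.84, and neuron-like cells at 3 d had 0 higher, 0 lower and Zfp36 0.26. At a minimum of 30 UMIs, microglia at 24 h had 3 lower, and microglia at 3 d had 2 lower. Astrocytes at 24 h had 5 higher, and astrocytes at 3 d had 2 higher. Oligodendrocytes at 24 h had 10 higher, 2 lower and a median of 0.58, and oligodendrocytes at 3 d had 20 higher. Pericytes at 3 d had 5 higher, and neuron-like cells at 24 h had 4 higher and 9 lower. Neuron-like cells at 3 d had 6 lower. With a 2-fold limit, microglia at 24 h had 1 higher and 0 lower, and microglia at 3 d had 0 lower. Astrocytes at 3 d had 0 higher and 3 lower, and oligodendrocytes at 24 h had 0 lower. Oligodendrocytes at 3 d had 6 higher, and endothelial cells at 24 h had 3 higher and 1 lower. Endothelial cells at 3 d had 2 higher and 0 lower, and pericytes at 24 h had 1 lower. Pericytes at 3 d had 1 higher and 1 lower, and neuron-like cells at 24 h had 0 higher. Neuron-like cells at 3 d had 1 higher and 0 lower. Without the 10% of cells with most markers of other classes, microglia at 3 d had 2 higher and 0 lower, and astrocytes at 24 h had 7 higher, 0 lower, a median of 0.61, Fosb 0.37, Junb 0.61, Egr1 0.67, Zfp36 0.40 and Btg2 0.048. Astrocytes at 3 d had 0 lower, a median of 0.053, Fosb 0.10, Junb 0.25, Atf3 0.36, Klf2 0.69 and Socs3 0.88, and oligodendrocytes at 24 h had 1 higher. Oligodendrocytes at 3 d had 0 higher, 2 lower, a median of -0.15, Zfp36 -0.54 and Btg1 -0.13, and endothelial cells at 24 h had 1 lower. Endothelial cells at 3 d had 1 lower, and neuron-like cells at 24 h had 0 lower. Neuron-like cells at 3 d had 1 higher and 0 lower. Without the smaller microglial cluster, microglia at 24 h had 0 lower, and microglia at 3 d had 0 lower. Without the 2% of cells with most UMIs of a gene, microglia at 24 h had 0 lower, and microglia at 3 d had 0 lower. Astrocytes at 24 h had 0 lower, a median of 0.39, Junb 0.14 and Egr1 0.69, and astrocytes at 3 d had 0 lower, a median of -0.036, Junb 0.063 and Socs3 0.32. Oligodendrocytes at 24 h had 0 higher and 0 lower, and oligodendrocytes at 3 d had 2 higher, a median of 0.061 and Zfp36 -0.11. Endothelial cells at 3 d had 1 lower, and pericytes at 24 h had 1 lower. Neuron-like cells at 24 h had 1 higher and 1 lower, and neuron-like cells at 3 d had 0 lower. With cells thinned to 4000 UMIs, the median member share in endothelial cells was 11.25‰, 12.6‰ and 12.25‰ of UMIs in the naive, 24 h and 3 d libraries. At 2000 UMIs it was 10.5‰, 10.0‰ and 11.5‰, so the 24 h library went from the lowest to the highest. Alternatives left few cells in some classes: the limit of 4% left 9 oligodendrocytes at 24 h, and the limit on marker UMIs of other classes left 2 to 10 oligodendrocytes or endothelial cells per library and gave no value there. At a resolution of 1 some clusters stayed unnamed, which left 2103 of 2560 astrocytes and 781 of 1107 endothelial cells. Of the 22 calls that held in the 4 settings of the report, 19 were kept with the limit of 4%, 12 with the 2-fold limit and 2 in cells with at most 1 UMI of other classes' markers, where all but 1 of those lost had fewer than 100 UMIs. Without the smaller microglial cluster 20 were kept, and the calls of Ier3 at 24 h and Gadd45b at 3 d in microglia ended. The removal of the 10% of cells, of the smaller microglial cluster and of the 2% of cells was chosen after seeing the data. Single ratios of calls that left their 95% interval but kept their sign are not listed, among them 19 without doublets, 18 without the 5 cells, 17 without the 10% of cells, 23 without the 2% of cells, 15 with cells weighted equally and 11 with the limit of 4%. Every other single ratio kept its sign where it had a value, every other count stayed within 1.5 times, and medians near 0 changed sign in several settings. No paired analysis was possible because the cells of 3 mice were pooled in each library and no mouse was measured more than once.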

Other observations

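Classes with fewer than 50 cells in a library were not compared, and their values are given in the order naive, 24 h and 3 d, for genes chosen after the values were seen. Border macrophages (Mrc1, Pf4) had 103, 34 and 167 cells, and the members summed to 15303, 16750.3 and 14390.5 CPM, close to microglia. Their cluster also met the marker rule for microglia, with 9 genes. Microglial markers summed to 17998, 13877 and 15794 CPM in it, against 21104, 17084 and 18193 CPM in microglia. Clustered without the members, the class held 188 cells, against 304. Cebpb had 138, 334 and 157 CPM in them, with a 95% Poisson interval of 292 to 380.3 CPM at 24 h, and Ier3 had 65.5, 153 and 61.0 CPM, with 125 to 185 CPM at 24 h. Both genes thus stood highest in the 24 h library, as in microglia, and the part of microglial RNA in these values was not tested. Gadd45b had 5.52, 7.36 and 14.1 CPM, and Jun, the most abundant of the members named here, 3018, 2754 and 2628 CPM. Progenitors (Top2a, Mki67) had 169, 35 and 175 cells and a member sum of 3323, 3488 and 3312 CPM, with 261, 296 and 258 CPM of Fos. A class of 298, 25 and 148 cells met no marker rule and held 12587, 13212 and 13027 CPM of member RNA. Microglial markers summed to 10229, 8803 and 8975 CPM in it, and its cells were shallow, with medians of 2051.5, 2477 and 2021 UMIs. A class of 98, 25 and 98 cells met the marker rule for erythrocytes, with Ecrg4 and Thbs4 beside the globin genes among its leading genes, and had a member sum of 3697, 5203 and 3123 CPM. Astrocyte markers summed to 6826, 8010 and 10584 CPM in that class. Fibroblasts (Dcn, Lum), with 9, 2 and 11 cells, had 4596, 2947 and 2809 CPM.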
